A study of Bos taurus with 2 samples.

Results

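The cluster of mir-424, mir-503, mir-542 and mir-450 is a run of microRNA (miRNA) genes that lie close together and on one strand, and its counts were examined here in bovine mammary gland. Its members were taken by name, as every listed arm of mir-424, mir-450 and mir-542 among the known bovine miRNAs and of PC-503 among the miRNAs conserved in other mammals (prefix PC). This gave 5 miRNAs, which are mir-424-5p, mir-424-3p, mir-450-5p, mir-542-5p and PC-503-5p, out of 874 named miRNAs with a value in both libraries. The lactation library came from mammary tissue of 1 multiparous Holstein cow that was 6 years old and had been in milk for 2 months. The non-lactation library came from 1 multiparous Holstein cow that was 4 years old and was neither in milk nor pregnant. With 1 cow in each state, state, age and animal cannot be told apart, and no value below has a replicate. The cluster is often linked to involution, the regression of the gland after milking stops, but the sources used here give no involution stage or time since drying off for the non-lactating cow.

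A miRNA is cut from a hairpin precursor, and the mature strands from its left and right sides are called the 5p and 3p arms. The strand pairs with messenger RNAs mainly through its seed, the bases 2 to 8 from its 5′ end, so miRNAs with one seed can share targets. miR-424, which is called miR-322 in rodents, and miR-503 belong to the extended miR-15/16 group, which is known to hold back the cell cycle and cell survival by lowering cyclins, Cdc25A and Bcl2. In the mouse mammary gland the pair of miR-424 and miR-503 is induced by TGF-β and is needed for normal involution. miR-542 and miR-450 lie beside this pair in mammals, and miR-542-3p is known to lower survivin, an inhibitor of apoptosis.

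The listed mature sequences of the members are shown because their seeds decide which of them could act on the same messengers. They are given 5′ to 3′ with the seed in capitals.

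mir-424-5p: cAGCAGCAauucauguuuuga
PC-503-5p: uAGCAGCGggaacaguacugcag
mir-424-3p: cAAAACGUgaggcgcugcuau
mir-450-5p: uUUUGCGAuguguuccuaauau
mir-542-5p: uCGGGGAUcaucaugucacga

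The seeds of mir-424-5p and PC-503-5p differed only at A8G, where positions count from 1 at the 5′ end and the base of mir-424-5p stands first. Over the 21 positions of mir-424-5p the pair was identical at 10. The seed of mir-424-5p was carried by 14 of the 874 miRNAs, or 1.60%, whereas those of PC-503-5p, mir-450-5p and mir-424-3p were carried by no other listed miRNA. The seed of mir-542-5p was also present in 1 candidate, CN-245-5p, which had 15 reads in lactation and 17 in non-lactation.

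All members lay on the minus strand of the unplaced scaffold Un00453 of the bovine genome BTA 4.0. From 5′ to 3′ on this strand the hairpins were mir-424 at 446856 to 446951, PC-503 at 446519 to 446589, mir-542 at 441550 to 441646 and mir-450 at 440493 to 440584. Only 266 bp separated mir-424 from PC-503, and 4872 bp separated PC-503 from mir-542. A further hairpin at 440638 to 440729, listed only through the candidate CN-48, stood between mir-542 and mir-450, so that 5 hairpins spanned 6459 bp. In the RefSeq annotation of the newer assembly ARS-UCD2.0, MIR424, MIR503, MIR542, MIR450A-2, MIR450A-1 and MIR450B follow one another on chromosome X between the protein-coding genes PLAC1 and HPRT1. MIR3601 was the only other gene listed within this run, and no protein-coding gene overlapped it. BTA 4.0 and ARS-UCD2.0 differ, so only names and order were taken from the latter.

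The hairpins of PC-503, mir-542, mir-450 and CN-48 also gave a 3p arm that was listed as a candidate (prefix CN, predicted from the genome), and these partner arms complete the picture of each precursor. The hairpins of PC-503 and mir-542 are shown with the sequenced arms in capitals, since they hold the arms called lower in lactation.

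PC-503 hairpin, PC-503-5p and CN-50-3p: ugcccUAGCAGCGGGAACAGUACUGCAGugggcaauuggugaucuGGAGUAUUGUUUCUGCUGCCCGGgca
mir-542 hairpin, mir-542-5p and CN-49-3p: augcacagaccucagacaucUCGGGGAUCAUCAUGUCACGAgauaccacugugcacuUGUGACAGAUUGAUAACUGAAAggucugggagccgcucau

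The reads of mir-450-5p could not be assigned to 1 hairpin, since its mature sequence was present in those of both mir-450 and CN-48. Every other arm of the cluster with a listed precursor occurred in 1 listed hairpin only.

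For each miRNA the deposited tables count its most abundant sequence and, summed, its isomiRs, variants that differ in length or in single bases. Levels are reads of the most abundant sequence scaled to 1000000 clean reads (RPM), ratios divide the lactation RPM by the non-lactation RPM, and each ratio has an exact 95% interval that covers counting error only. The named miRNAs held 5633199 reads in lactation and 7752063 in non-lactation. A single read was worth 0.0836 RPM in the first and 0.0626 RPM in the second. A listed 0 was set to 3 reads, the smallest number listed, which corresponds to 0.251 and 0.188 RPM. Calls are from Fisher's exact test, two-sided, with Bonferroni adjustment over all 874 miRNAs and a threshold of 0.05, and they compare these libraries, not lactation with non-lactation in general.

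The cluster did not move as a unit. mir-424-5p was higher in the lactation library, PC-503-5p was lower, and the reads of the other 3 members differed too little to be called. One of the 5 members was called higher, beside 16.9% of all miRNAs, and 1 was called lower, beside 10.9%. Of the 266 miRNAs with at least 100 summed reads, 110 were called higher and 88 lower. At least a 2-fold ratio with at least 100 summed reads was reached upward by none of the 4 members with that depth, beside 29.3% of the 266 such miRNAs, and downward by PC-503-5p, beside 23.3%. Upward, mir-424-5p fell just short at 1.99. The median log2 ratio was 0.10 over these 4 members and 0.22 over these 266 miRNAs. With mir-542-5p included the members' median was -0.13, beside 0.42 over all 874 miRNAs. The 0.42 includes entries listed at 0 and set to 3 reads. Without these entries the median was 0.25 over 534 miRNAs. With 5 members, 1 call in each direction is close to these shares and is no result about the cluster as a whole.

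**Figure D1:**
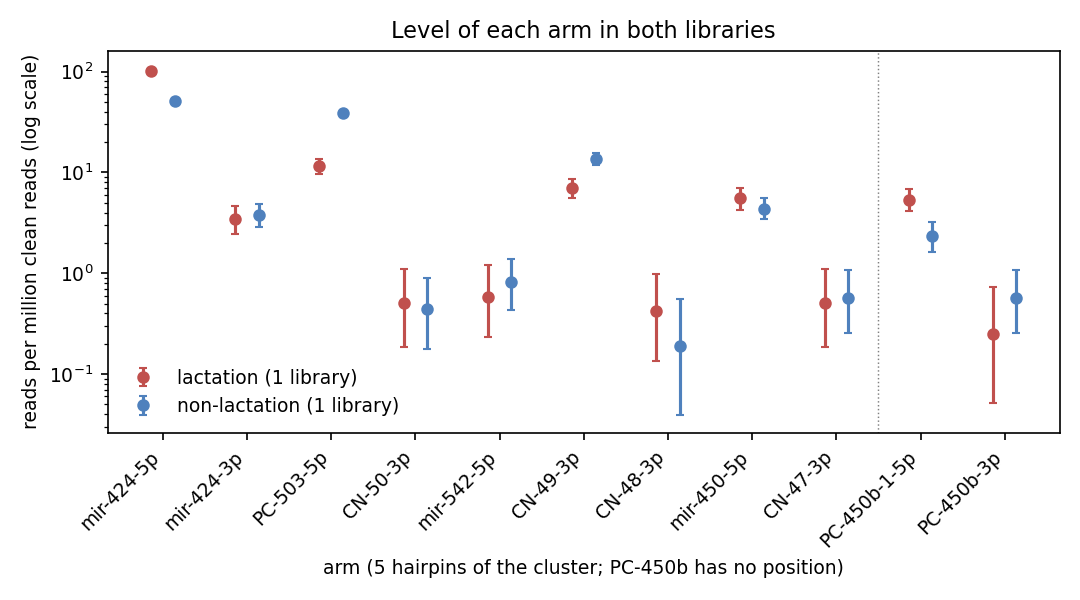
Level of each arm in RPM on a log axis, with 1 point per library (red, lactation; blue, non-lactation) and exact 95% counting intervals. mir-424-5p was the highest arm in both libraries (103 and 51.5 RPM), and PC-503-5p was the arm whose points lay farthest apart (11.5 and 38.8 RPM) among those with more than 20 summed reads.

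mir-424-5p was the most abundant member. It had 1228 reads in lactation and 823 in non-lactation, although the non-lactation library was the deeper one. These are levels of 103 RPM (97.0 to 109) and 51.5 RPM (48.1 to 55.2), which did not overlap in their counting intervals. Its ratio was 1.99 (1.82 to 2.18, adjusted p = 4.03e-51, Fisher's exact test), and it ranked 83rd of all miRNAs by reads in lactation and 101st in non-lactation. In bulk tissue, a change in the number of cells of a type and a change in RNA per cell cannot be told apart, and this holds for every ratio given here.

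PC-503-5p, the member that shares all but the last seed base with mir-424-5p, went the other way. Its listed homologues were in horse and dog. It had 138 reads in lactation and 620 in non-lactation, or 11.5 RPM (9.69 to 13.6) and 38.8 RPM (35.8 to 42.0). The level was 3.37-fold lower in lactation (2.80- to 4.08-fold, adjusted p = 4.81e-44, Fisher's exact test), and its rank fell from 108th in non-lactation to 174th in lactation.

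The hairpins of mir-424 and PC-503 were the closest neighbours among the members, yet their ratios differed the most. The ratio of mir-424-5p was 6.70 times that of PC-503-5p (5.44 to 8.28), a value that does not depend on how the libraries are scaled. In reads, mir-424-5p exceeded PC-503-5p 8.90-fold (7.46 to 10.7) in lactation and 1.33-fold (1.20 to 1.48) in non-lactation. Among the 10 pairs of members, the interval of this ratio of ratios excluded 1 in 6 pairs, namely all 4 pairs with mir-424-5p and those of PC-503-5p with mir-424-3p (3.07, 1.92 to 4.85) and with mir-450-5p (4.24, 2.83 to 6.32). The 4 pairs that did not exclude 1 all held mir-542-5p or paired mir-450-5p with mir-424-3p, and the interval of mir-450-5p over mir-424-3p ran from 0.794 to 2.403 around 1.38. With all isomiR reads the interval excluded 1 in 8 of the 10 pairs. mir-424-5p and mir-450-5p then no longer differed beyond counting error (1.08, 0.826 to 1.42), while mir-450-5p exceeded mir-424-3p (2.29, 1.53 to 3.43) and mir-542-5p (2.28, 1.16 to 4.56), and mir-542-5p exceeded PC-503-5p (2.63, 1.35 to 4.98). The ratio of mir-424-5p over that of PC-503-5p was 6.48 (5.38 to 7.83) by these reads.

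**Figure D2:**
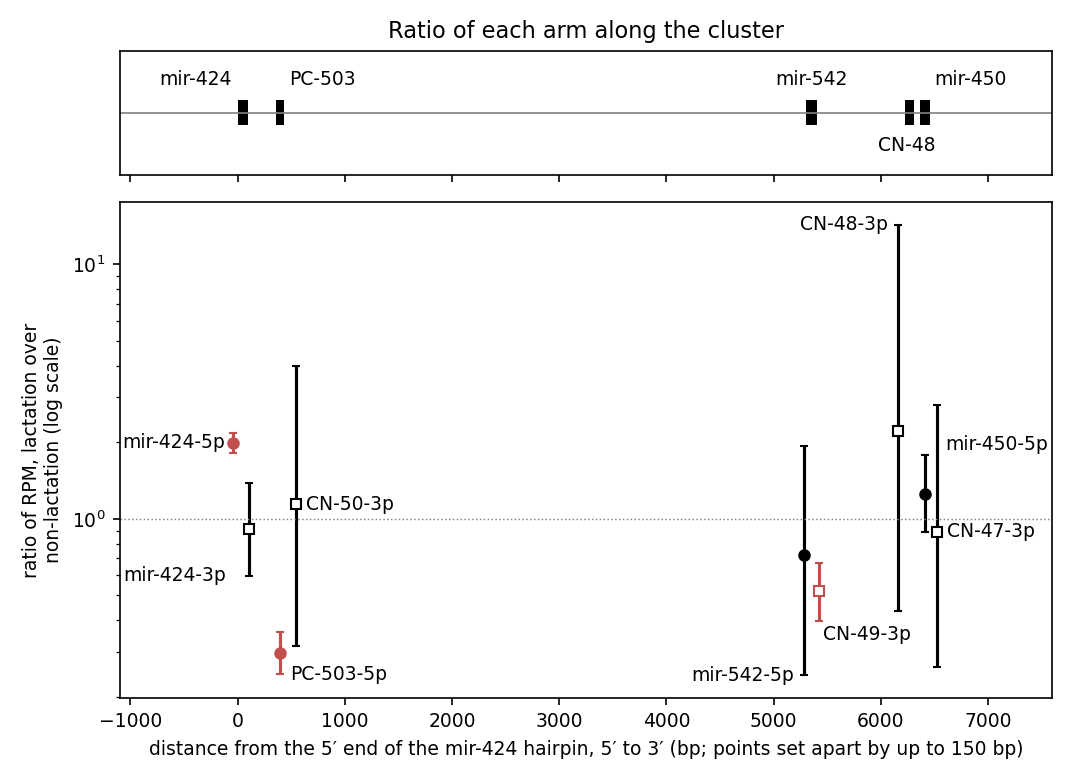
Ratio of each of the 9 arms (lower panel, log axis, lactation over non-lactation, with exact 95% counting intervals; circles 5p, open squares 3p, red where called) against the distance of its hairpin from the 5′ end of the mir-424 hairpin (upper panel, hairpins to scale). mir-424-5p (1.99) and PC-503-5p (0.297) stand on opposite sides of 1 although their hairpins are 266 bp apart.

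mir-424-3p, the other arm of the mir-424 hairpin, was sparse. It had 41 reads in lactation and 60 in non-lactation, or 3.43 and 3.76 RPM, levels that overlapped in their counting intervals. Its ratio was 0.912 (0.598 to 1.38, adjusted p = 1, Fisher's exact test), and a change within that interval was not detectable at this depth. Both arms come from one precursor, and their ratios still differed. The 5p arm made up 96.8% (95.6 to 97.7) of the reads of the pair in lactation and 93.2% (91.3 to 94.8) in non-lactation. The 5p to 3p ratio was thus 30.0 and 13.7, a 2.18-fold difference (1.43 to 3.37) that no scaling of the libraries can alter.

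mir-542 differed from the rest of the cluster in its dominant arm. The known arm, mir-542-5p, had only 7 reads in lactation and 13 in non-lactation, or 0.585 and 0.814 RPM, with a ratio of 0.719 (0.243 to 1.94), and neither direction could be read from it. The 3p side, listed as the candidate CN-49-3p, had 84 and 216 reads, or 7.02 and 13.5 RPM. It was 1.93-fold lower in lactation (1.49- to 2.51-fold, adjusted p = 0.000110, Fisher's exact test). The 5p arm held 7.69% (3.15 to 15.2) of the reads of this hairpin in lactation and 5.68% (3.06 to 9.51) in non-lactation, so the arm that carries the name of the known bovine miRNA was the minor one in both.

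CN-49-3p, the major arm of the mir-542 precursor, has the following sequence, with its seed in capitals.

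CN-49-3p: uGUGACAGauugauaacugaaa

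This seed was found in no other listed miRNA. Downstream, mir-450-5p had 66 reads in lactation and 70 in non-lactation, or 5.52 and 4.38 RPM, and its ratio of 1.26 (0.885 to 1.79) was not called (adjusted p = 1, Fisher's exact test). The counting intervals of its levels overlapped, and without scaling its ratio fell to 0.943. Its 3p partners were near the lowest listed counts, with 6 and 9 reads for CN-47-3p and 5 and 3 reads for CN-48-3p in the lactation and non-lactation libraries. CN-50-3p, the partner of PC-503-5p, had 6 and 7 reads, so PC-503-5p held 95.8% (91.2 to 98.5) of the reads of its hairpin in lactation and 98.9% (97.7 to 99.6) in non-lactation. With so few 3p reads the 5p to 3p ratio of PC-503 was 0.260 times as large in the lactation library, within an interval of 0.0736 to 0.953. By all isomiR reads it was 0.466 times as large, and the interval of 0.197 to 1.19 included 1.

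Within the lactation library the order of the members was mir-424-5p, PC-503-5p, mir-450-5p, mir-424-3p and mir-542-5p, and each step down exceeded counting error by reads of the most abundant sequence. By the same reads the order was the same in the non-lactation library, where mir-450-5p and mir-424-3p did not differ beyond counting error (1.17-fold, 0.815 to 1.68). By all isomiR reads, PC-503-5p and mir-450-5p did not differ beyond counting error in lactation (1.16-fold, 0.923 to 1.47). In non-lactation mir-424-3p then stood above mir-450-5p, again within counting error (1.18-fold, 0.903 to 1.54).

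The make-up of the cluster changed with these opposite movements. Of the reads of its 9 arms, mir-424-5p held 77.7% (75.5 to 79.7) in lactation and 45.2% (42.9 to 47.5) in non-lactation. PC-503-5p held 8.73% (7.38 to 10.2) and 34.1% (31.9 to 36.3), and CN-49-3p held 5.31% (4.26 to 6.54) and 11.9% (10.4 to 13.4). The shares of these 3 arms therefore differed between the libraries by more than counting error. mir-450-5p kept close shares of 4.18% (3.24 to 5.28) and 3.84% (3.01 to 4.83), and mir-424-3p had 2.59% (1.87 to 3.50) and 3.30% (2.52 to 4.22), with overlapping intervals in each case. All 9 arms together had 1581 and 1821 reads, or 132 and 114 RPM, a ratio of 1.16 (1.08 to 1.24) that fell below 1 with TMM factors (0.989), with DESeq2 size factors (0.973) and without scaling (0.868).

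**Figure D3:**
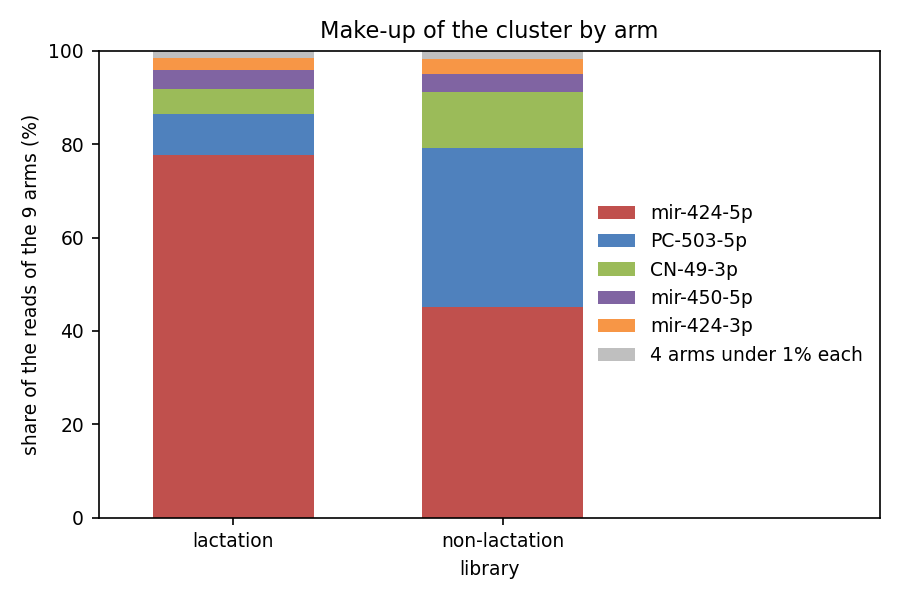
Share of the reads of the 9 arms held by each arm, in percent, in 1 stacked bar per library. mir-424-5p takes 77.7% of the lactation bar and 45.2% of the non-lactation bar, and PC-503-5p takes 8.73% and 34.1%.

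The reads of all isomiRs gave a further view of each member. For mir-424-5p they came to 1980 reads of 25 kinds in lactation and 1384 reads of 16 kinds in non-lactation, a ratio of 1.91 (1.78 to 2.05). The most abundant sequence held 62.0% (59.8 to 64.2) and 59.5% (56.8 to 62.1) of these reads. PC-503-5p had few variants, with 163 reads of 4 kinds and 738 reads of 8 kinds, and its most abundant sequence held 84.7% (78.2 to 89.8) and 84.0% (81.2 to 86.6). Among known miRNAs with at least 100 isomiR reads this share had a median of 45.1% in lactation (175 miRNAs) and 45.2% in non-lactation (181 miRNAs), and among conserved ones 59.2% and 74.5% (23 miRNAs each). Both members thus lay above the median of their own table, and their shares did not differ between the libraries beyond counting error (odds ratios of 1.11, 0.965 to 1.28, and 1.05, 0.648 to 1.76).

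mir-450-5p was the member whose isomiRs changed its result. Its most abundant sequence held 47.1% (38.7 to 55.8) of 140 isomiR reads in lactation and 66.0% (56.2 to 74.96) of 106 in non-lactation, an odds ratio of 0.459 (0.263 to 0.797). The other isomiRs had 74 reads in lactation and 36 in non-lactation. Over all isomiRs the ratio was 1.76 (1.36 to 2.29), and mir-450-5p was then called higher in lactation (adjusted p = 0.00912, Fisher's exact test). For mir-424-3p the isomiR reads were 72 and 125 (ratio 0.769, 0.567 to 1.04) and for mir-542-5p 18 and 31 (0.775, 0.408 to 1.43), and neither was called. CN-49-3p had 210 and 463 isomiR reads and remained called lower.

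PC-450b, a close relative of mir-450 listed among the conserved miRNAs, has no position in the bovine genome here. In RefSeq its namesake MIR450B is the last gene of the run. Its 5p arm is shown because a changed seed base sets it apart from mir-450-5p.

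PC-450b-1-5p: uUUUGCAAuauguuccugaau

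Counted from the 5′ end of mir-450-5p, the pair was identical at 16 of 21 positions and differed within the seed at G7A. PC-450b-1-5p had 64 reads in lactation and 37 in non-lactation, or 5.35 and 2.32 RPM. Its ratio of 2.31 (1.52 to 3.56) was called with an adjusted p of 0.0401 by Fisher's exact test, close to the threshold, and the call was lost with raw reads as totals (adjusted p = 0.160), TMM factors (0.809), DESeq2 size factors (1), no scaling (1) and all isomiR reads (0.130). PC-450b-3p had 3 and 9 reads, a ratio of 0.445 (0.0775 to 1.78).

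A second conserved entry, PC-322-5p, carried the name of the rodent counterpart of miR-424 and was matched by the authors to the mouse and rat precursors, with no bovine position.

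PC-322-5p: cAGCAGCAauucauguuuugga

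Its first 20 bases were those of mir-424-5p, and it was 1 base longer, at 22 against 21. It had 22 reads in lactation and 15 in non-lactation, with a ratio of 1.96 (0.970 to 4.06), beside 1.99 for mir-424-5p. Because the pair differs only after base 20, the deposited counts do not show whether these reads came from the same precursor.

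mir-424-5p differed from the better-known carriers of its seed. mir-16a-5p, mir-195-5p, mir-497-5p, mir-15a-5p and mir-15b-5p, the core of the miR-15/16 family, had ratios of 1.06 (1.02 to 1.11), 0.713 (0.682 to 0.744), 0.880 (0.826 to 0.937), 0.881 (0.822 to 0.943) and 0.605 (0.560 to 0.653). The ratio of mir-424-5p exceeded that of each of these, by 1.87-fold (1.70 to 2.07) for mir-16a-5p up to 3.29-fold (2.93 to 3.71) for mir-15b-5p. Of the other 9 miRNAs with this seed and with reads in both libraries, 7 had a ratio below 1 and 2 above. Fisher's exact test called 3 lower and none higher, beside the 10.9% and 16.9% of all miRNAs called lower and higher. Among the 266 miRNAs with at least 100 summed reads, 88 were called lower and 110 higher. With 9 miRNAs nothing particular to this seed is read from these counts. These 9 are not all separate sequences, since PC-15a-5p, PC-16b-5p and PC-497-5p extend mir-15a-5p, mir-16a-5p and mir-497-5p at the 3′ end. PC-15a-5p was among those called lower, whereas mir-15a-5p was not called. With raw reads, TMM, DESeq2 or no scaling 5, 6, 6 and 7 of the 9 were called lower, and mir-16a-5p was below 1. Of all 874 miRNAs, 99, 111, 113 and 123 were called lower under these scalings. With the listed reads or isomiR reads as totals 1 of the 9 was called higher, beside 151 and 164 of all 874. Shares among miRNAs of like depth were not taken under these scalings. The remaining 4, which were PC-15b-5p, PC-16a-5p, PC-16c-5p and CN-207-5p, were listed at 0 in 1 library and had at most 8 reads in the other.

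**Figure D4:**
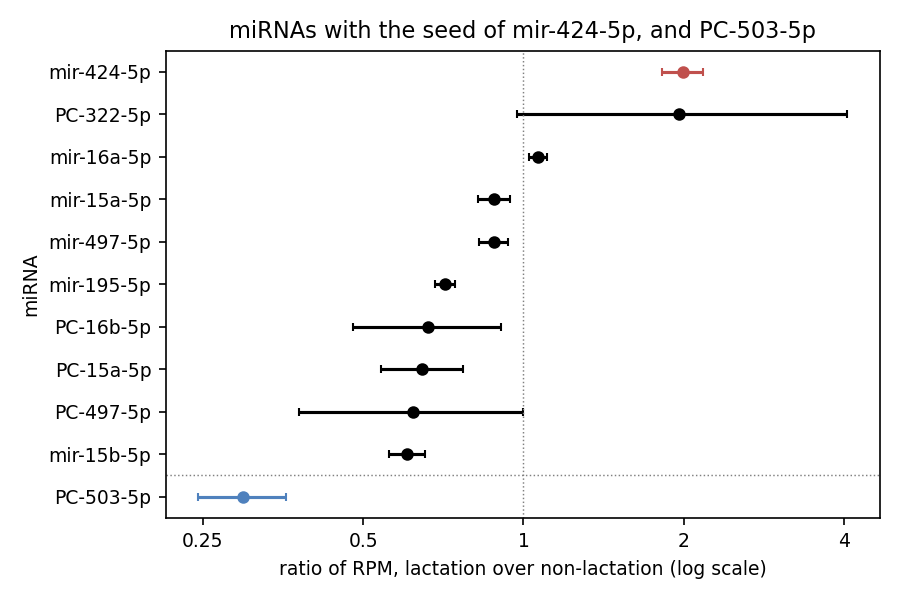
Ratio of RPM, lactation over non-lactation, on a log axis with exact 95% counting intervals, for the 10 miRNAs with the seed of mir-424-5p that had reads in both libraries (red, mir-424-5p) and, under the dotted line, for PC-503-5p (blue). mir-424-5p lies at 1.99 and PC-322-5p at 1.96, the other 8 lie between 0.605 and 1.06, and PC-503-5p lies at 0.297.

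In summed reads, the 14 miRNAs with this seed had 1114 RPM in lactation and 1246 RPM in non-lactation, a ratio of 0.894 (0.875 to 0.914). mir-424-5p supplied 9.21% (8.73 to 9.72) of these reads in lactation and 4.14% (3.87 to 4.42) in non-lactation. It ranked 5th of the 14 in lactation and 6th in non-lactation, and mir-16a-5p (34.7% and 29.2%) and mir-195-5p (24.0% and 30.1%) held the most reads.

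A second group of hairpins lay on the same scaffold and strand, 259 kb further along. These were mir-106, mir-18b, mir-20b and mir-363, relatives of the mir-17/92 cluster, which promotes proliferation. mir-20b-5p had 778 reads in lactation and 84 in non-lactation, a ratio of 12.4 (9.86 to 15.7), and mir-106-5p had 357 and 54 (8.82, 6.61 to 11.98). mir-363-3p had 1392 and 574 (3.24, 2.93 to 3.57), and mir-18b-5p had 13 reads in lactation and was listed at 0 in non-lactation. Among their partner arms CN-34-5p had 19 and 14 reads, CN-35-3p 4 and 3, CN-37-3p 36 and 10, and CN-36-3p had 10 in lactation and was listed at 0 in non-lactation. Fisher's exact test called these 4 known arms and CN-37-3p (adjusted p = 0.00126) higher in lactation, beside 16.9% of all miRNAs called higher. Among the 266 miRNAs with at least 100 summed reads, 110 were called higher, and mir-18b-5p and CN-37-3p had fewer reads than that. Of the known arms, the 3 with reads in both libraries kept ratios of at least 2.425 under all scalings tried.

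**Figure D5:**
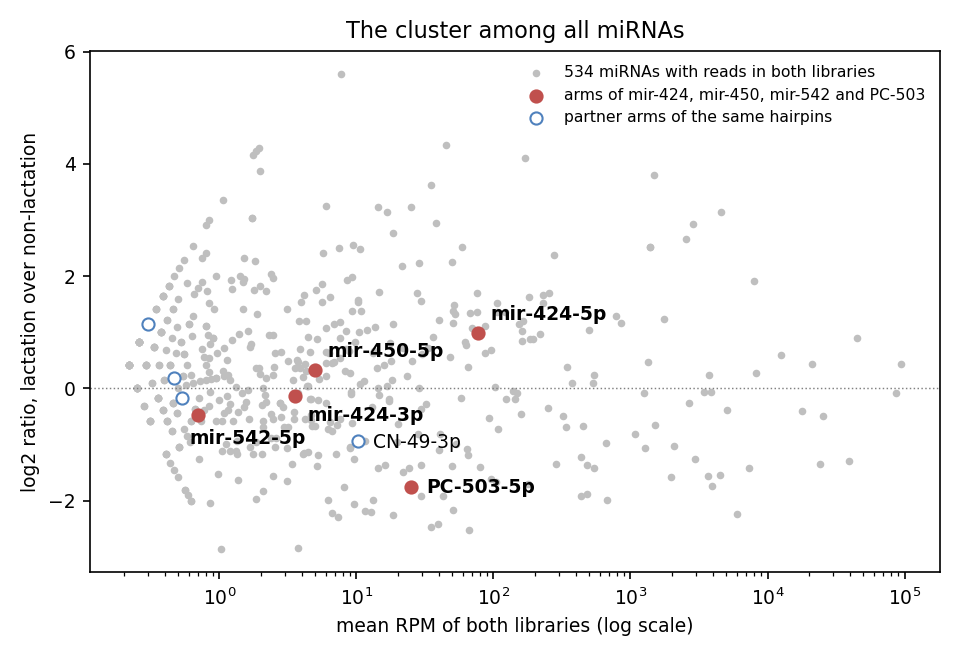
Ratio of RPM on the log2 scale (lactation to non-lactation) against the mean RPM of both libraries (log axis) for the 534 miRNAs with reads in both (grey), with the 5 members in red and the 4 partner arms as open circles. The members spread over log2 ratios from -1.75 (PC-503-5p) to 0.99 (mir-424-5p), inside the cloud of the other miRNAs.

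Of the 116 other miRNAs with at least 1000 summed reads, those closest in log2 ratio to mir-424-5p were CN-86-3p (2.02, 0.02 away on the log2 scale), mir-98-5p (1.95, 0.03 away) and mir-185-5p (2.07, 0.05 away). Closest to PC-503-5p were mir-101-3p (3.33-fold lower in lactation), PC-7c-5p (3.26-fold) and mir-10a-5p (3.18-fold), within 0.08 on the log2 scale. This likeness rests on a single pair of libraries.

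The libraries also differed in miRNAs that mark cell types, taken from lists chosen with earlier results of these data known. Calls in these lists stand beside 16.9% of all miRNAs called higher and 10.9% called lower. Among the 266 miRNAs with at least 100 summed reads they were 110 and 88. Summed over 7 epithelial miRNAs the level was 12398 RPM in lactation and 2643 RPM in non-lactation, with 5 called higher and 2 lower. Of these sums mir-200c-3p held 8172 and 920 RPM, and those called lower were mir-205-5p (3.76-fold) and PC-203-3p (3.77-fold). Over 6 stromal and smooth muscle entries the level was 8640 and 14558 RPM, with 2 called higher and 3 lower. Of these sums mir-199a-3p held 2100 and 9968 RPM, and it was called lower with mir-199a-5p and mir-199b-5p. Those called higher were mir-143-3p (ratio 2.35) and mir-145-5p (1.175), and mir-214-3p was not called. The 4 striated muscle miRNAs summed to 4480 and 696.5 RPM (2 called higher), both arms of the endothelial mir-126 to 487 and 165 RPM (2 higher), 5 leukocyte entries to 70.6 and 128 RPM (3 lower) and 3 erythroid ones to 90.8 and 32.5 RPM (2 higher). The only marker listed at 0 was mir-144-3p, in the non-lactation library. The defining epithelial markers of the tissue were present in both libraries, and the part of these differences in the ratios of the cluster was not tested.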

How the data were processed

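The authors sequenced small RNA of mammary tissue, filtered the reads against adaptors, poor quality and other RNA classes, and aligned them to miRBase 17.0 and the genome BTA 4.0 by ACGT-miR. Deposited were read counts for the most abundant sequence of a miRNA, the sum over its isomiRs and the number of isomiR kinds. For extraction the labels name Trizol and the methods of the study a miRNeasy kit. Column order of isomiR sums among the candidates was taken from the values, and 9 sums (7 miRNAs) that were missing or below the most abundant sequence were dropped. Entries without a name (9 with reads, 1.96% and 1.61% of the listed reads in lactation and non-lactation) and 1 miRNA with a value in 1 library only were not tested.

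RPM used the clean reads stated by the study as totals. Intervals of ratios and shares (Clopper-Pearson) and of ratios of ratios (conditional) are exact, at 95%, for independent reads and cover counting error only. Reads without molecular identifiers are not independent molecules, so the intervals can be too narrow even for counting error. Fisher's exact test was adjusted over all 874 miRNAs, and with 1 library per condition the conditions could not be tested. Hairpins were joined over gaps of at most 10 kb. Members, lists, named miRNAs and tests were chosen with earlier results of these data known. Named were the members, arms at their coordinates, PC-450b, entries on the scaffold or with a member's seed, and the 3 miRNAs of at least 1000 summed reads nearest in log2 ratio to mir-424-5p and to PC-503-5p. CN-48-3p lies in a hairpin of its own on that scaffold. Alternatives were 6 other scalings, all isomiR reads, Benjamini-Hochberg adjustment, a minimum of 100 summed reads, calls by 2-fold or 1.5-fold, and, added after seeing the data, leaving out entries at 0 and the order of levels and 5p to 3p ratios by isomiR reads. The methods were tested on counts simulated with counting error only, which cannot show how the calls fare with differences between animals or libraries. Python 3.11.15 with scipy 1.17.1 was used, while edgeR 4.0.16 and DESeq2 1.42.0 under R 4.3.3 supplied only scaling factors. The sequences of the remaining hairpins are not reported here.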

Additional observations from a re-analysis of the deposited data

How the results depend on the processing

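The calls of mir-424-5p (higher in lactation) and PC-503-5p (lower) held under all 6 other scalings and with all isomiR reads, with ratios of mir-424-5p from 1.49 without scaling to 2.16 with the sum of the listed isomiR reads as totals. mir-450-5p turned to a ratio of 0.943 without scaling, and with all isomiR reads it was called at 1.76, which raised the members called higher from 1 to 2. By the rule of 2-fold with 100 summed reads 0 members were called higher with clean reads as totals, where mir-424-5p fell just short at 1.99. Its ratio was above 2 with the listed reads (2.05) and the listed isomiR reads (2.16) as totals. The ratio over the 9 arms of the cluster fell to 0.989 with TMM factors, 0.973 with DESeq2 size factors and 0.868 without scaling. The ratio over the miRNAs with the seed of mir-424-5p was 0.922 with the listed reads as totals, 0.968 with the listed isomiR reads, 0.834 with raw reads, 0.763 with TMM, 0.751 with DESeq2 and 0.670 without scaling. These scalings moved the median log2 ratio of all miRNAs by 0.04, 0.12, -0.10, -0.23, -0.25 and -0.42.

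Over the members only, mir-424-5p held 83.0% of the reads in lactation and 51.9% in non-lactation, and PC-503-5p 39.1% in non-lactation. With all isomiR reads mir-424-5p held 48.0% in non-lactation, and PC-503-5p 6.25% in lactation and 25.6% in non-lactation. With the PC-450b arms, an alternative chosen after seeing the data as were the scalings of both summed ratios, mir-424-5p held 74.5% in lactation. Scaling shifts every ratio alike, and the cause of the isomiR differences was not tested. No paired analysis was possible because each condition has 1 library, so no replicate could be left out either. Depth limited mir-542-5p, CN-47-3p, CN-48-3p and CN-50-3p, with 8 to 20 summed reads each.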
